A study of Mus musculus with 6 samples.

Results

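Complement and coagulation factors are plasma proteins, and many of them circulate as inactive precursors. This account describes the accessible DNA around 39 of their genes, from C1ra and C1s1 at the head of the classical complement pathway to Plg and Cpb2 in the dissolution of clots. A member interval was any interval of the deposited list that overlapped the RefSeq span of 1 of the 39 named genes or the 10 kb on either side. By this rule 174 of the 120905 intervals belonged to the 39 genes, and 11 of the 174 were counted for a pair of neighbouring members. All 39 genes were found in the gene table of the assembly GRCm38.p6, the mm10 build of the mouse genome.

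The libraries were made by ATAC-seq, in which a transposase cuts and tags open DNA, from livers of mice that were wild type, male and kept on a High-fat Diet. Of 6 libraries, 3 were C57BL/6J and 3 were 129S1/SvImJ, both inbred strains, and the diet, sex and genotype were the same in all. The age of the mice, the time of sampling and whether replicates were separate animals are not given in the labels, the protocol names the transposed material by the unexplained abbreviation LMs, and an antibody entry, Esrrg, has no place in such an assay. The deposited list merged all libraries and gave a chromosome, a start and an end per interval, with no library, score or read count.

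For this reason the strains could not be compared, the depth behind an interval is unknown, and no value has a replicate error. Genes are not replicates either, so the values below are descriptions with no test. The set was read against all 21887 protein-coding genes and, for each member, against the 200 non-member protein-coding genes nearest to it in length. An interval lay within 1 kb of a gene end in 11 of 11 hepatocyte markers found, against 65.7% of genes of their length. The counts were 4 of 12 for macrophages (against 63.8%) and 4 of 8 for endothelium (71.2%). They were 6 of 8 for stellate cells (65.4%) and 2 of 8 for lymphocytes (59.3%). The macrophage list includes C1qa, C1qb and C1qc, which lie close together and had no interval within 10 kb. These genes are also in the list of other pathway genes below. In the same order of cell types, the median numbers of intervals were 5, 1, 7.5, 4 and 1. The matched medians were 3, 3, 4.5, 3.5 and 2. The endothelial markers had the largest median, and their matched genes did too. More intervals than the matched median were found at 9 of 11 hepatocyte, 2 of 12 macrophage and 5 of 8 endothelial markers. The same held for 4 of 8 stellate and 2 of 8 lymphocyte markers, and for 42.1% of all protein-coding genes. The list does not say which cells an interval comes from, and the part of cell composition in the values below was not tested.

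In complement, C1 and the mannose-binding lectins with their proteases start cleavage cascades that meet at C3, and the terminal components assemble a pore in the target membrane. In coagulation, the contact factors and tissue factor start a chain of proteases that ends in thrombin, which turns fibrinogen into fibrin. Antithrombin, protein C and protein S restrain thrombin formation, and plasmin dissolves the clot. Hepatocytes make most of these proteins, and many of their genes respond to the signals of the acute phase. Cfd, known from adipocytes, is an exception among the members.

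RefSeq promoter sequences of GRCm38.p6, from 250 bases before a listed start to 50 bases from it on, were given for 31 of the 39 members. The 6 below were chosen because C6, F5, Fga and Serpind1 have the widest interval at a gene end among complement, coagulation, fibrinogen and anticoagulant genes, and C3 and C7 carry the letters AGGTCA, which were found in the largest number of member promoters. They lie at chr17:57228087-57228386 on the minus strand (C3), chr15:4726960-4727259 on the plus strand (C6), chr15:5063724-5064023 on the minus strand (C7), chr1:164151585-164151884 on the plus strand (F5), chr3:83025903-83026202 on the plus strand (Fga) and chr16:17331121-17331420 on the plus strand (Serpind1). Each is written 5′ to 3′ along its gene, and capitals mark the bases that lie in a deposited interval.
C3: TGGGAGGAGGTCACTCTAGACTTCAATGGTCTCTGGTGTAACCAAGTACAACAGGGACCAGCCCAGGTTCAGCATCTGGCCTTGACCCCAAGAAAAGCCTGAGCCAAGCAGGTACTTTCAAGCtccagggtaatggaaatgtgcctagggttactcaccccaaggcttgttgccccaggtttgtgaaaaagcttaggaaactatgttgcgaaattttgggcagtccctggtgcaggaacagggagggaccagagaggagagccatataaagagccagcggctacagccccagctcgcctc
C6: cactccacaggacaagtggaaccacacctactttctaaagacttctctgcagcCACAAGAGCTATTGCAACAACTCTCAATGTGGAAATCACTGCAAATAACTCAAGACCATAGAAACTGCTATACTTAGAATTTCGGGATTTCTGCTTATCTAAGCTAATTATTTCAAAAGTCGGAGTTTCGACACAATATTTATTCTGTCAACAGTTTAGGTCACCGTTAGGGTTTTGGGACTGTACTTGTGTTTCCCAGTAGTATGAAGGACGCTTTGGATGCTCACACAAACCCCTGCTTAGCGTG
C7: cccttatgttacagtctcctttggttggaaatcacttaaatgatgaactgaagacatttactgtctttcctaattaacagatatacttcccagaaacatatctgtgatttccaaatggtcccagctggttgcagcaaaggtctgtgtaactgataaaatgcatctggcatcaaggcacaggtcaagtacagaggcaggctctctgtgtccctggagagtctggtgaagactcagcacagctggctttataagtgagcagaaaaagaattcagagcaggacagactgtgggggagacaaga
F5: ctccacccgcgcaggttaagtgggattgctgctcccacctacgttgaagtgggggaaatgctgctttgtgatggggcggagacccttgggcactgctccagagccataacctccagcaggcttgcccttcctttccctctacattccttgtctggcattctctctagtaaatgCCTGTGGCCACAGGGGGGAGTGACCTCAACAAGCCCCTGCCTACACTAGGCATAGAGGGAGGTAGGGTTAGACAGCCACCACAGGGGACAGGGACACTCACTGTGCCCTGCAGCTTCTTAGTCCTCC
Fga: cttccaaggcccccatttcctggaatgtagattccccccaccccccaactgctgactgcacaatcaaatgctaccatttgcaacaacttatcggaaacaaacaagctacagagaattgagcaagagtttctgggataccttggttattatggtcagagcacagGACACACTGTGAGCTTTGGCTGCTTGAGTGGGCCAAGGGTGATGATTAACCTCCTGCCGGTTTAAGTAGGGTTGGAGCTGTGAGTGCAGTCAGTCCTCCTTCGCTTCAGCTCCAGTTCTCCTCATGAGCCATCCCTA
Serpind1: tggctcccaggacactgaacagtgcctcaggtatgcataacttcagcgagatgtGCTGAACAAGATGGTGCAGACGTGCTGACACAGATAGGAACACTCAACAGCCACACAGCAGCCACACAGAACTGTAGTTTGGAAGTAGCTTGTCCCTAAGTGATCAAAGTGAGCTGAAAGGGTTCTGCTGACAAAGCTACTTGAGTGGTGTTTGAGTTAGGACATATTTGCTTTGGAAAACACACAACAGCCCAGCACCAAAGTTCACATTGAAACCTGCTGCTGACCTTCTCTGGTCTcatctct

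The capitals show how differently the intervals sat on these promoters. In C6, a pore component, 247 of the 300 bases lay in an interval, and in Serpind1, which encodes heparin cofactor II, 239 did. In Fga, the fibrinogen alpha chain gene, and F5, the factor V gene, the interval took in the start and left out the more distant bases, with 137 and 127 bases covered. In C3 the 123 covered bases were the distant ones, and the start itself was outside. The promoter of C7, another pore component, had no base in an interval.

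Intervals lay within 1 kb of a gene end in 32 of the 39 members (82.1%), against 61.5% of all protein-coding genes and 67.5% of the genes matched on length. Each member had at least 1 interval within 10 kb, whereas 16.1% of all protein-coding genes and 11.8% of matched genes had none. An interval inside the gene, away from both ends, was present in 22 members (56.4%), against 48.1% of all protein-coding genes and 50.7% of matched genes. The number per member ran from 1 at Mbl2 to 10 at Masp1 and Pros1, with a median of 4 (quartiles 3 and 6), and the matched genes had a median of 3 (quartiles 2 and 5). More intervals than the median of the matched genes were found at 27 members (69.2%), as many at 7 and fewer at 5. The corresponding share over all protein-coding genes was 42.1%.

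The 5 members below the median of genes of their length were Mbl2, C7, F2, Kng1 and Hrg. Members averaged 1.44 intervals at ends, 1.59 inside and 1.72 in the flanks, matched genes 0.935, 1.33 and 1.22, and all protein-coding genes 0.847, 2.34 and 1.11. The mean inside was thus above that of genes of the same length and below that of all protein-coding genes. Complement and clotting genes had similar shares with an interval at an end, at 15 of 18 (83.3%) and 17 of 21 (81.0%). They differed in how many exceeded their matched median, with 10 of 18 complement and 17 of 21 clotting genes, a difference that was not tested. Ties made up most of it, since 6 complement genes and 1 clotting gene equalled their matched median, and 2 and 3 were below. The median number of intervals was 4.5 in complement and 4 in clotting genes.

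**Figure D1:**
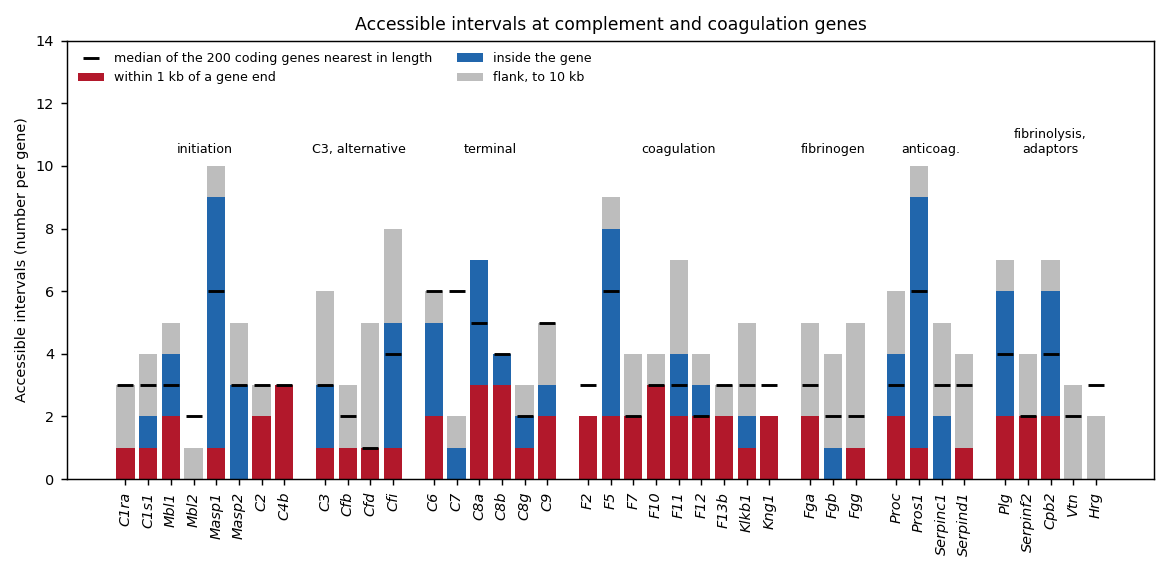
Number of accessible intervals per gene (vertical axis) for the 39 members, grouped by role along the horizontal axis; colours give the place of the interval and black bars the median of the 200 protein-coding genes nearest in length. Masp1 and Pros1 reach 10 and F5 9, and C7 has 2 where genes of its length have a median of 6.

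Intervals at both ends of a gene were frequent among the members. Such a pair was present at 15 members (38.5%), namely Mbl1, C2, C4b, C8a, C8b, F5, F7, F10, F11, F12, Kng1, Fga, Proc, Serpinf2 and Cpb2. The share was 9.68% over all protein-coding genes and 9.54% in the matched genes. For the 31 members with a listed start, an interval lay within 1 kb of the opposite end in 12 (38.7%), against 13.2% of the 17492 protein-coding genes with a listed start. At 2 of the 12, F7 and Cpb2, the interval was also within 1 kb of an end of another coding or lncRNA gene, F10 and Zc3h13, and at the other 10 it was not. The count depended on the window and on narrow intervals, with 8 members and 5.05% of matched genes at 500 bp, 32 members and 43.8% at 5 kb, and 9 members and 5.38% without intervals of the narrowest width, 201 bp.

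At the start itself the members were closer to other genes. An interval lay within 1 kb of a listed start in 24 of 31 members (77.4%), against 61.7% of protein-coding genes, and covered the start in 15 (48.4%), against 38.7%. The 300-base promoter was overlapped in 21 of 31 (67.7%), against 52.1%. The interval nearest to the start had its centre within 100 bp in 15 members (48.4%, against 36.2% of protein-coding genes) and within 500 bp in 23 (74.2% against 58.1%). It lay before the start in 14 of the 23 and at or after it in 9, a split that was not counted over all protein-coding genes. Those genes leaned the same way. An interval covered the position 100 bp before the first listed start in 33.7% of them and 100 bp after it in 18.5%. The shares in members were 35.5% and 22.6%. The 15 covered starts were those of C1ra, Mbl1, Masp2, C6, C8b, C9, F2, F5, F12, Klkb1, Fga, Pros1, Serpind1, Serpinf2 and Cpb2.

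**Figure D2:**
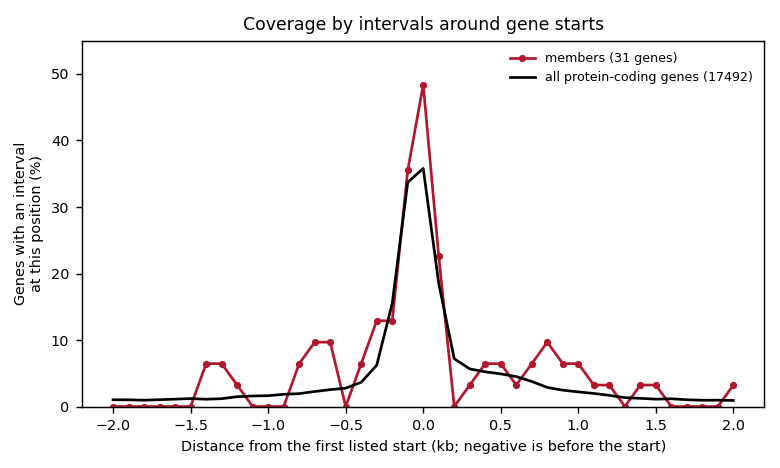
Percentage of genes (vertical axis) with an interval at each position from 2 kb before to 2 kb after the first listed start (horizontal axis, kb, steps of 100 bp), for 31 members and 17492 protein-coding genes. Both curves peak at the start, at 48.4% and 35.8%, and each step of the member curve is 1 gene, or 3.23%.

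**Figure D3:**
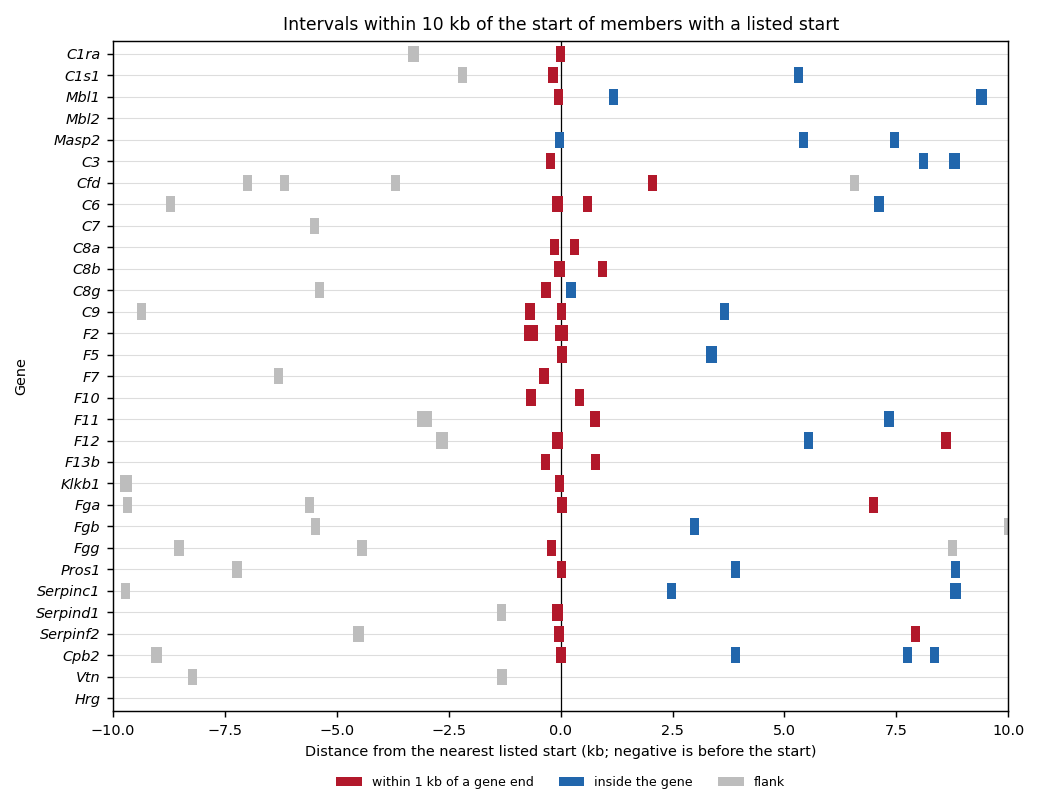
Position of each interval relative to the nearest listed start (horizontal axis, kb, drawn to scale) in the 31 members with one, coloured by its place. Most rows hold an interval at or beside the start line, and the rows of Mbl2 and Hrg hold none within 10 kb of it.

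Among the genes that start the complement cascades, the catalytic genes of C1 had an interval beside their starts. C1ra had 3 intervals, with a 201 bp interval centred 5 bp after the start, and C1s1 had 4, with a 223 bp interval centred 162 bp before it. A 248 bp interval between these neighbours, which lie 6903 bp apart on chromosome 6, was counted for both.

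The mannose-binding lectin genes differed in number. Mbl1 had 5 intervals, among them 1 of 204 bp over the start and 1 of 257 bp inside the gene. Mbl2 had only 1, a 201 bp interval centred 14584 bp after its start, past the far end of the gene at chr19:30247412-30247612. Genes of the length of Mbl2 had a median of 2, and 81.0% of them had at least as many as it did.

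The protease genes of the lectin pathway had more intervals than the median of genes of their length. Masp1, on chromosome 16, had 8 inside its span of 69.5 kb, 201 to 299 bp wide, and its total of 10 compared with a median of 6 in genes of its length, 15.0% of which had at least as many. Its only interval at an end, 239 bp at chr16:23520483-23520721, was also within 1 kb of an end of Rtp4. Masp2 had 5 against 3 and none at either end of its span. Its listed start lies inside the span, however, and a 202 bp interval at chr4:148602420-148602621 was centred 23 bp before that start.

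C2 and C4b, whose products form the convertase that cleaves C3, had 3 intervals each, as did the median gene of their length. All 3 at C4b were 201 bp wide and within 1 kb of an end. C4b has a near-identical neighbouring copy in the mouse, so its intervals are uncertain.

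C3 and the genes of the alternative pathway each had more intervals than the median of genes of their length. C3, the component on which all activation routes meet, had 6 against 3. The nearest to its start was 201 bp wide and centred 228 bp before it, and 2 of 236 and 201 bp lay inside the gene, centred 8796 and 8099 bp after the start.

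Cfb, the protease of the alternative convertase, had 3 against 2. It lies 87 bp from C2, and a 201 bp interval at chr17:34862196-34862396 was within 1 kb of an end of both. The intervals in the flanks of Cfb lay inside the neighbouring gene Nelfe. Cfd, the adipsin gene that activates factor B, spans 1.80 kb, had 5 against 1, and 6.5% of genes of its length had at least as many. None was at its start, since the nearest was centred 2052 bp after it, beyond the far end, and 4 of the 5 were in the flanks. Flank intervals of Cfd also lay within 1 kb of an end of Prtn3, within 1 kb of an end of Elane and inside Med16. Cfi, the protease that inactivates C3b, had 8 against 4, of which 1 of 206 bp lay at an end, at chr3:129836058-129836263, and 4 lay inside the gene. Those in the flanks of Cfi were also within 1 kb of an end of Gar1 or Pla2g12a.

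Of the 6 genes of the pore, C8a and C8g had more intervals than the median of genes of their length, C6, C8b and C9 had as many, and C7 had fewer. C6 had 6 against 6, with the 259 bp interval over its start at chr15:4727013-4727271 and a 201 bp interval 590 bp after it. C9 had 5 against 5, including a 201 bp interval centred 8 bp after its start and one of 270 bp in the flank. C7 spans 76.0 kb on chromosome 15 and had 2 against 6, and 95.0% of genes of its length had at least as many. Its intervals were 201 bp wide at 17755 bp inside the gene and 214 bp wide at chr15:5069170-5069383, centred 5503 bp before the start.

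C8 consists of 3 chains from separate genes. C8a had 7 intervals against 5, of which 6 were exactly 201 bp wide, and its start was flanked by a pair centred 148 bp before and 303 bp after it, both also inside the neighbouring gene Fyb2. C8b had 4 against 4, with a 241 bp interval over its start, and no interval lay in the 11130 bp between C8b and C8a. C8g, the lipocalin chain gene on chromosome 2, had 3 against 2, and its 232 bp interval at an end was also at an end of Fbxw5.

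Each of the 9 genes of coagulation proteases, their cofactors and the contact system had an interval at an end, against 69.7% of their matched genes. F2, the prothrombin gene, had only 2 intervals within 10 kb of its 24.1 kb span, and 80.5% of genes of its length had at least as many. Both were wide, 282 bp centred 23 bp after the start and 304 bp centred 663 bp before it. F5 had the widest interval of all members, 339 bp at chr1:164220265-164220603, over the far end of the gene. Its start carried a 225 bp interval, and 6 more lay inside the gene, which gave 9 against 6.

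F7, the partner of tissue factor, and F10, which cleaves prothrombin, lie 1498 bp apart on chromosome 8, and each had 4 intervals, against 2 and 3. A 211 bp interval at chr8:13036540-13036750 lay between them and counted at an end of both. Around the start of F10 there were 2 intervals, centred 663 bp before and 420 bp after it, and neither covered it. F7 had a 212 bp interval centred 374 bp before its listed start.

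The contact genes F11 and Klkb1 are neighbours too, 4632 bp apart. F11 had 7 intervals against 3, and 5.5% of genes of its length had at least as many. Klkb1, the plasma prekallikrein gene, had 5 against 3, with a 210 bp interval centred 32 bp before its start. A 334 bp interval lay between them, the widest in a flank, and was centred 3038 bp before the start of F11. F11 had no interval over its start, the nearest being centred 772 bp after it. F12, which begins the contact pathway, had 4 against 2, with a 234 bp interval over its start and a 229 bp interval at its far end.

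Kng1, the kininogen gene, had 2 against 3, 1 near each end, and the wider was 259 bp. F13b encodes the carrier subunit of the enzyme that cross-links fibrin. Its 3 intervals, against 3, were all 201 bp wide, centred 334 bp before and 780 bp after the start and in the flank.

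The 3 fibrinogen genes lie within 42.1 kb on chromosome 3 and had 10 intervals within 10 kb of the locus. Each had more than genes of its length, 5 against 3 at Fga, 4 against 2 at Fgb and 5 against 2 at Fgg. Of the 10 intervals, 3 overlapped the space between Fgg and Fga, the last of them reaching over the start of Fga, and 1 lay between Fga and Fgb. Intervals shared by neighbours were counted for both, so that the 3 genes had 14 counts, 10 in flanks, 3 at ends and 1 inside.

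In order along the chromosome, 226 and 207 bp intervals lay 8.53 and 4.44 kb before the start of Fgg, the gamma chain gene, and a 210 bp interval at chr3:83007411-83007620 was centred 208 bp before it, also within 1 kb of an end of the lncRNA gene Gm30097. Between Fgg and Fga, 201 and 208 bp intervals lay 8.76 and 12.8 kb after the start of Fgg. Fga carried the 234 bp interval at chr3:83026066-83026299 over its start and a 201 bp interval at its far end. A 208 bp interval at chr3:83039759-83039966 lay between Fga and Fgb.

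Fgb, the beta chain gene, is transcribed towards Fga and had no interval at either end. Its nearest was a 201 bp interval inside the gene at chr3:83046765-83046965, centred 2998 bp after the start. A 205 bp interval at chr3:83055240-83055444, 5479 bp before its start, lay beside the neighbouring gene Plrg1.

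**Figure D4:**
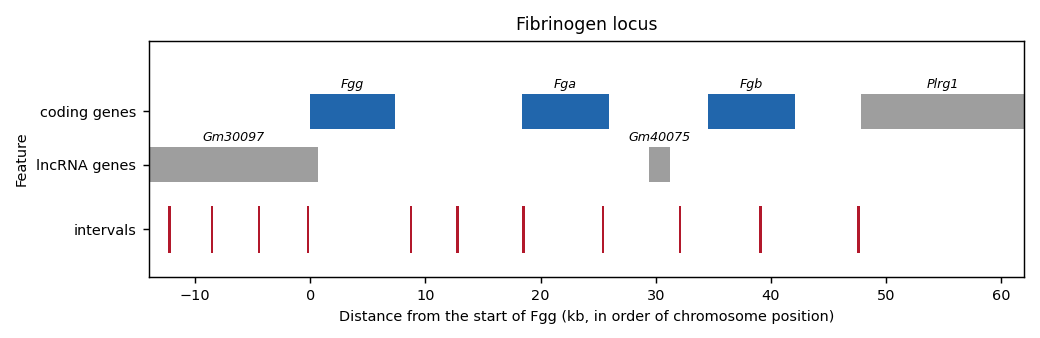
Accessible intervals (red, to scale) and genes around the fibrinogen locus, by distance from the start of Fgg (horizontal axis, kb). Intervals lie at or beside the starts of Fgg and Fga and between the genes, and Fgb has 1 inside and none at its ends.

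The anticoagulant genes each had more intervals than genes of their length. Pros1, the gene of the cofactor protein S, had 10 against 6, with a 220 bp interval centred 18 bp after its start and 8 inside its 75.0 kb span, 201 to 244 bp wide. Proc, the protein C gene on chromosome 18, had 6 against 3, with 201 and 207 bp intervals near its ends. Serpind1 had 4 against 3, and its 239 bp interval at chr16:17331175-17331413 is the one printed in capitals above. The span of Serpind1 lies inside Pi4ka, so each of its intervals was also inside that gene. Serpinc1, the antithrombin gene, had 5 against 3 and none at an end. Its 3 flank intervals each also lay inside a neighbouring gene, Rc3h1 or Zbtb37. Its nearest to the start was a 201 bp interval inside the gene at chr1:160980962-160981162, centred 2479 bp after the start, and a 248 bp interval lay 8812 bp after it.

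Among the genes of clot dissolution, Plg, the plasminogen gene, and Cpb2, whose product slows plasmin formation, had 7 intervals each against 4. Those of Plg included 281 and 266 bp intervals inside the gene and a 230 bp interval at an end at chr17:12378404-12378633. Cpb2 carried a 209 bp interval centred 9 bp after its start. Serpinf2, which encodes the plasmin inhibitor, had 4 against 2, with a 207 bp interval at each end.

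The adaptor genes Vtn and Hrg had no interval at an end or inside. Vtn, the vitronectin gene, had 3 in its flanks, the nearest 223 bp wide at chr11:78497699-78497921, centred 1310 bp before its start and also at an end of Sarm1. Hrg, the gene of histidine-rich glycoprotein, had 2, of 262 and 237 bp, both past its far end, and the nearer at chr16:22963383-22963644 was centred 12441 bp after the start.

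The limits of 1 and 10 kb placed some intervals narrowly. At ends, the farthest counted were 995 bp away at C8a and 925 bp at Mbl1, and the nearest not counted were 1072 bp away at Mbl1 and 1199 bp at Vtn. In flanks the farthest counted was 9780 bp away at Vtn, and the nearest not counted was 10465 bp from Mbl1.

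The widths of member intervals followed their place in the gene much as elsewhere. The 174 intervals were 201 to 339 bp wide with a median of 207 bp, against 203 bp over the whole list, and 36.2% against 46.2% were exactly 201 bp, the narrowest width in the list. At ends the median was 209.5 bp in members and 210 bp over all protein-coding genes, inside genes 204 and 204 bp, and in flanks 207 and 206 bp. The 15 that covered a start had a median of 220 bp, against 215 bp for all protein-coding genes. At ends the narrowest width took 31.5% of member intervals and 26.5% of those of all protein-coding genes.

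With the 201 bp intervals left out, 26 of 39 members (66.7%) had an interval at an end, against 51.7% of all protein-coding genes and 57.8% of matched genes. The members that had lost every interval within 10 kb were Mbl2, C4b and F13b. C1ra, C3, Cfb and Cfd kept intervals, but none at an end. F2, Mbl1, Cfi, C8b, F10, Klkb1 and Hrg had no interval of 201 bp to lose.

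**Figure D5:**
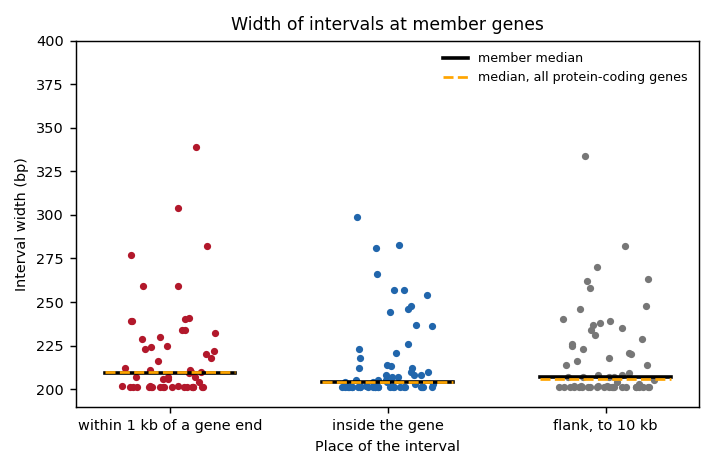
Width in bp (vertical axis, which does not start at 0) of each interval at member genes by its place; black lines are member medians and dashed lines the medians over all protein-coding genes. The medians nearly coincide, at 209.5 and 210 bp at ends, and the widest point is the 339 bp interval of F5.

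The promoters were searched on both strands for the letters of 11 motifs, a description of letters and not of bound factors. AGGTCA, the core of many nuclear receptor sites, was in 12 of 31 member promoters (38.7%), those of C3, C6, C7, C8b, F2, F5, F7, F10, Fgg, Mbl2, Serpind1 and Serpinf2, against 18.1% of the 27025 genes with a promoter entry. A match lay inside an interval in 8 of the 12, and 21 of the 31 member promoters (67.7%) overlapped an interval at all. For this and the other motifs, the share of matches inside intervals was not counted over all promoters. AGGTCA stood 40 bases before the start of C6, 57 before that of F5 and 33 before that of F2, as TGACCT in the last pair. TTGCNNAA, a C/EBP motif, was in 11 (35.5%), those of C1ra, C1s1, C3, C9, Cpb2, F11, Fga, Fgb, Hrg, Klkb1 and Serpinc1, against 12.2%, and inside an interval in 3. AGGTCA occurred in 6 of the 15 members with a covered start and 6 of the 16 without, and TTGCNNAA in 5 and 6.

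The other motifs were rare in these windows. TATAAA, the letters of the TATA box, was in 5 member promoters (16.1% against 15.7%). The match began 14 bases after the start in C3 and on the start base in Hrg. It began 6 bases before the start in C7, 132 in Klkb1, and 137 and 135 in Vtn. TGTTTAC (FOXA) was in 2, those of F11 and Klkb1 (6.45% against 4.05%), and TTCCNGGAA (STAT) in 2, those of Fga and Pros1 (6.45% against 1.35%). TTATGNAA, the D-box of clock output factors, was in 2, those of C1ra and C9 (6.45% against 3.99%). In both genes these are the same bases as the TTGCNNAA match counted above. The HNF1 motif was in 1, that of F13b (3.23% against 0.47%). No member promoter held CAAAGTCCA (HNF4, 0.555% of all), TCAAGGTCA (ERR, 0.466%, which contains AGGTCA), the NF-kB motif (1.63%) or CACGTG (E-box, 8.09%). A missing match says only that these letters are not in the window.

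Other genes of the same pathways, 44 in a separate list of regulators, receptors and factors from several cell types, were marked at an end in 34 cases (77.3%), against 66.6% of genes of their length. Their median of 3 intervals equalled the matched median of 3, with 19 above it, 16 below and 9 equal, and a difference from the 39 members was not tested. Vwf, the von Willebrand factor gene of endothelium, had the most, 14 intervals in 134 kb. C1qa, C1qb and C1qc, the macrophage-made subunits of C1q, and the ficolin gene Fcnb had none within 10 kb. These were 4 of the 44, where 16.1% of all protein-coding genes had none. The C1q genes lie close together on chromosome 4, so their counts are not independent. They are also among the macrophage markers counted above. C1ra and C1s1, the protease partners of C1q, had 3 and 4.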

How the data were processed

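The authors deposited 1 list of intervals for 6 ATAC-seq libraries, with positions on mm10 and no score, count or signal. Per the submitters' processing notes, fastp (a read trimmer), Bowtie2 (an aligner) and HOMER (which includes a peak caller) were used with mm10, in an order and in versions that are not stated. How transposase offsets, duplicates, the peak threshold and the merging of libraries were handled is not given in the sources used here, and such steps set how many weak sites entered the list. No depth per library could be given.

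Gene spans and promoter sequences came from RefSeq tables of GRCm38.p6, with 21887 protein-coding genes on 21 chromosomes. The promoter table gave strand and start for 31 members. An interval was at an end if it overlapped 1 kb on either side of an end by at least 1 bp, otherwise inside or, to 10 kb, in the flank. Each member was set beside the 200 non-member protein-coding genes nearest in log length. Python 3.11.15, numpy 2.4.6 and pandas 2.3.3 were used, and the placement of intervals was tested on simulated data.

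The members, lists and motifs were chosen with earlier results of these data known, and the counts at both ends after their values were seen. All 39 members are named. Positions were printed for the widest interval at an end in each of 7 role groups, the fibrinogen locus and members without an interval at an end, and others that share an interval were added after the values were seen. A gene that the naming rule would give is not reported here. Of the marker lists, Tf was not found under that symbol. Alternatives were other windows, flanks and matching, interval centres, joined intervals, no 201 bp intervals and 1 member per locus. The planned comparison of strains was not run.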

Additional observations from a re-analysis of the deposited data

How the results depend on the processing

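The excess of members over matched genes kept its direction under the 11 alternatives run for each measure. The difference in the share with an interval at an end was 14.6 percentage points and ranged from 8.87 without the 201 bp intervals to 20.6 without matching on length. The difference in median intervals was 1 and ranged from 1 to 2. The number of members with an interval at an end was 32, and it ranged from 26 to 37 over 7 alternatives. Without the 201 bp intervals the 26 members were 66.7%, against 57.8% of matched genes. At 5 kb the 37 were 94.9%, against 82.4%. With 1 member per locus the number was 26 of 32 (81.2%), against 68.1% of matched genes. The median number per member of 4 became 2 without flanks and 11 with flanks of 50 kb, since less or more sequence was searched. Members with intervals near both ends numbered 15, and 8 at 500 bp, 32 at 5 kb and 9 without the 201 bp intervals. The share of matched genes moved the same way, from 9.54% to 5.05%, 43.8% and 5.38%. The median width stayed between 206 and 220 bp over 6 alternatives. Leaving out the 2 longest and 2 shortest members was added after the data were seen. It gave 29 of 35 with an interval at an end (82.9%), against 68.1% of matched genes. No paired analysis was possible because the list carries no column for a library or replicate, and no library could be left out for the same reason. The list gives no read depth, so the strength of an interval and the reliability of a missing one are unknown.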

Other observations

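Relatives of the members, chosen after the members' values were seen, had intervals of their own. C1rb and C1s2, the copies of C1ra and C1s1 on chromosome 6, had 2 and 1 within 10 kb, where C1ra and C1s1 had 3 and 4. Kng2, a second kininogen gene beside Kng1, had 4 in 43.2 kb, and Kng1 had 2 in 23.9 kb. C4bp, which encodes a soluble inhibitor of the classical convertase, had 5, with 1 at an end and 2 inside. Reads shared by such copies cannot be placed uniquely, so these counts are uncertain.

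The plasma protein genes beside Hrg on chromosome 16 gave a contrast within a short region. Ahsg, which encodes fetuin-A, had 5 intervals within 10 kb of its 7.44 kb span, 3 of them at ends. Fetub, between Ahsg and Hrg, had 2, both inside the gene, and Hrg had 2, both in its flank.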
